A study of Homo sapiens with 35 samples.

Results

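ETS1 sites outside promoters that were occupied both with and without TWEAK numbered 562, of 1875 ETS1 sites in TWEAK-treated and 1464 in untreated cells. A site was a merged ETS1 peak found in both replicates of a condition on chromosomes 1 to 22 and X. A site of TWEAK-treated cells was kept where it overlapped an untreated site and where its centre lay outside the window from 1000 bp before to 100 bp after every GENCODE transcript start. The sites were thus chosen by the presence of ETS1 peaks, so presence, height and width of those peaks are given as description, without a test. The remaining TWEAK sites comprised 556 common promoter sites, 301 non-promoter and 456 promoter sites found only after TWEAK, and 216 non-promoter sites were found only without it. Found only in 1 condition means that no peak of both replicates was called in the other. The first and second untreated libraries still had an ETS1 peak on 205 and 18 of the 301 sites. The first and second TWEAK libraries had one on 71 and 57 of the 216.

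The cells were U-87 MG, an established human glioma cell line, and all treated groups received 10 ng/ml TWEAK for 48 h. ETS1 was profiled by ChIP-seq in control cells, untreated or with TWEAK. The p52 libraries came from control cells of either treatment and from ETS1 KD cells of guide 1 and of guide 2 under TWEAK. RNA Pol II was profiled in control cells of either treatment and, under TWEAK, in both ETS1 KD and NFKB2 KD lines, with 2 libraries in each ChIP-seq group. RNA-seq covered the same 4 groups as RNA Pol II with 3 libraries each, and the labels give no guide for the KD cells of either. No ETS1 library of a KD line and no untreated KD library is analysed here, and nothing in the labels says whether replicates were separate cultures, so the spread between them may be technical.

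ETS1 is the founding member of the ETS family of transcription factors, whose DNA-binding domain reads a GGAA core on either strand. p52 is the DNA-binding subunit made from the NFKB2 product when ligands such as TWEAK, a cytokine of the TNF family, activate the non-canonical NF-κB pathway. RNA Pol II transcribes protein-coding genes and most small nuclear RNA genes, and its peaks mark where it is engaged near starts and along genes. Sites beyond promoters can be enhancers, the first stretch of a transcribed gene, or stretches of repeated DNA such as the satellite arrays beside centromeres and the ribosomal DNA arrays.

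The targeted genes bore out the RNA-seq labels. ETS1 stood at 42.0, 41.3 and 45.03 CPM (counts scaled to the library's total) in untreated cells, at 71.9, 73.1 and 87.5 after TWEAK and at 28.2, 32.9 and 37.7 in ETS1 KD cells with TWEAK. NFKB2 stood at 235, 288 and 346 CPM after TWEAK and at 75.6, 92.5 and 105 in NFKB2 KD cells. VIM, CD44, NES, TNC, FN1 and CHI3L1, markers of a mesenchymal glioma line, were at 55.6 CPM or more in every library. Of the glial markers, GFAP, SOX2 and S100B were under 1 CPM in all 12, whereas OLIG2 ran from 0.527 to 1.73 CPM. PTPRC, CD3E, CDH5, CDH1, KRT5 and RBFOX3, defining markers of immune, endothelial, epithelial and neuronal cells, were under 1 CPM throughout. The other markers fixed for these cells were not, at 12.4 to 19.9 CPM for SNAP25, 1.56 to 3.03 for SYP, 1.11 to 3.90 for VWF, 1.14 to 1.72 for CD68, up to 2.05 for EPCAM and up to 1.58 for PECAM1, and their part in the results was not tested. ChIP-seq lists held 1922 to 4138 ETS1, 363 to 11678 p52 and 11110 to 44564 RNA Pol II peaks on the chromosomes used, and the numbers of reads behind them are unknown here.

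The common non-promoter sites fell into 2 kinds of place. The first lay in CpG-rich, single-copy DNA mostly inside genes just downstream of a transcript start. The second lay in DNA that recurs in the genome, mostly between genes. Copy number was read from hg38 as the median number of times that a site's 31-base words occur, on either strand. By this measure 317 sites (56.4%) had a median of 1 and are called single-copy, and 245 (43.6%) had a median of at least 2 and are called repeated. The division was made after the data had been seen and is descriptive. Of the common promoter sites 6.83% were repeated, as were 35.5% of the non-promoter sites found only after TWEAK and 61.1% of those found only without it. Reads from repeated DNA can be placed at several copies, so a peak there does not tell which copy was bound.

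The sequences of strong and of the weakest sites show these kinds of place side by side. Each holds 50 bases to either side of the summit of the strongest ETS1 peak in TWEAK-treated cells, read from the plus strand of hg38. The first 6 are those of highest rank, by the lowest fold enrichment over the 4 ETS1 libraries, that the rule for named sites allows, with 1 site above them left out. In these 6, capitals mark CCGGAAG or AGGAAG on either strand. These letters were found within this window at TRIM2 alone.
PDGFRA (chr4:54233134-54233234): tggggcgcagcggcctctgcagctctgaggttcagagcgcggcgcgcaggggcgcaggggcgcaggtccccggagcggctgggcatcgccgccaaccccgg
TRIM2 (chr4:153153395-153153495): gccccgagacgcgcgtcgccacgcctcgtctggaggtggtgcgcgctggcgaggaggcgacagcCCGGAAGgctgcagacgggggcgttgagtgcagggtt
TUBGCP5 (chr15:23039477-23039577): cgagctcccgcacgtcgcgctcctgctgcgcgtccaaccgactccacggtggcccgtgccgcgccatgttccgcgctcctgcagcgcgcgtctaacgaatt
EGR2 (chr10:62815580-62815680): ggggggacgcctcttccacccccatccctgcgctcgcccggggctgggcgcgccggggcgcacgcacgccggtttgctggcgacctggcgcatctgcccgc
P2RY1 (chr3:152835378-152835478): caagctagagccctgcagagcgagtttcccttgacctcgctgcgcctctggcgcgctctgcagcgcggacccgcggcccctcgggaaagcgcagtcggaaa
PGAP4 (chr9:101486922-101487022): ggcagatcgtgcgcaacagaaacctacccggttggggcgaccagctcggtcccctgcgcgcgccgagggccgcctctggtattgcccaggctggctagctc
In the weakest 3 sites, capitals mark the pentamer GGAAT on either strand, which occurred 4 times in each of these windows and which is the repeating unit of a pericentromeric satellite.
Chromosome 1 satellite (chr1:125179217-125179317): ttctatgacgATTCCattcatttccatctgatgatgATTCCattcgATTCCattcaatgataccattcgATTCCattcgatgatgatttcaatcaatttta
Chromosome 16 satellite, first (chr16:46390570-46390670): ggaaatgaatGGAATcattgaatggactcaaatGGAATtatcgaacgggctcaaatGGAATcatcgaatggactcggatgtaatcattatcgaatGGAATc
Chromosome 16 satellite, second (chr16:46400605-46400705): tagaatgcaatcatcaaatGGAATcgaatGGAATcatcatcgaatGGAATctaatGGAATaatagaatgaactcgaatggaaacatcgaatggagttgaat

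By annotation 220 sites (39.1%, 95% exact binomial interval 35.1 to 43.3%) lay in no gene, 204 in introns and 138 in exons. Of the exonic sites 66 touched coding sequence, 37 an untranslated region without coding sequence and 35 an exon of a non-coding transcript. Among common promoter sites 23.02% lay in no gene. A transcript start lay within 1 kb of 255 sites, and in all 255 the site's centre was downstream of it, as the rule leaves no other place within 1 kb. A further 88 sites were 1 to 5 kb, 86 were 5 to 50 kb and 133 were over 50 kb from the nearest start, the last all in no gene. Of single-copy sites 279 (88.0%) were within 5 kb of a start and 39 (12.3%) in no gene. Of repeated sites 64 (26.1%) were within 5 kb and 181 (73.9%) in no gene.

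The window's edges cut through a continuous run of sites. The sites just outside lay right past the limit of 100 bp at PHACTR2, 107 bp downstream of P2RY1 and 111 bp downstream of PAUPAR, and the promoter sites just inside lay 92, 94 and 94 bp downstream, 1 of them at SERPINE2. On the other edge, common non-promoter sites lay at -1011 bp from GSE1 and -1056 bp from CALCR, and the nearest promoter sites at -935, -935 and -930 bp. The smallest overlap of a member with an untreated site was 195 bp. The smallest gap between a site found only after TWEAK and an untreated site was 181 bp.

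Of the 562 sites 140 (24.9%) lay in 12 windows of 1 Mb that held 5 or more. The fullest, with 35 sites, was on chromosome 21 between 8204905 and 8471738, which holds ribosomal DNA with the genes RNA5-8SN1, RNA5-8SN2 and RNA5-8SN3. Next came 21 sites on chromosome 4 between 49091667 and 49635617, 14 on chromosome 5 between 49601494 and 49667331, and 13 on chromosome 1 between 143192763 and 143263796. Of the 140 clustered sites 134 (95.7%) were repeated, against 111 of 422 (26.3%) elsewhere. Because 72 sites shared at least 80% of their 31-base words with another site, 27 of them on chromosome 21, the members are not independent places.

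**Figure D1:**
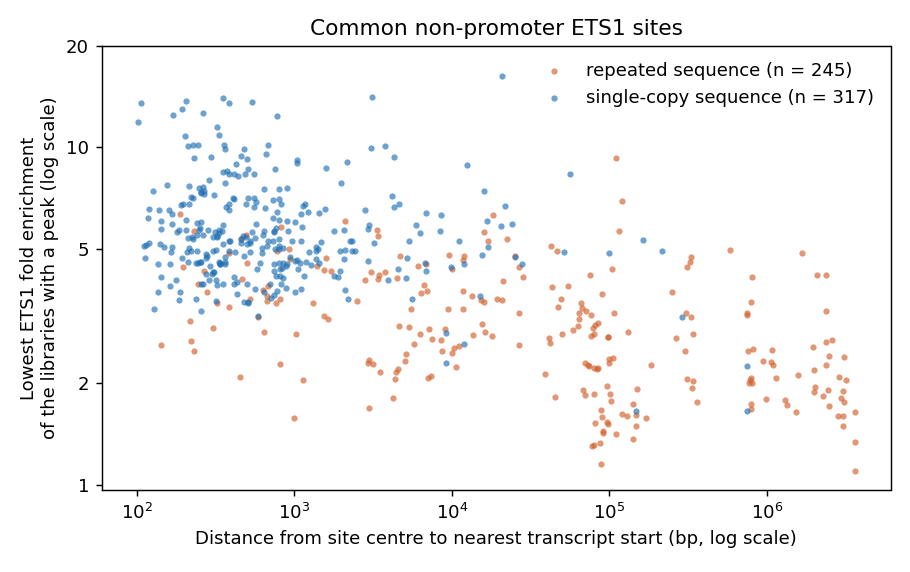
Lowest ETS1 fold enrichment of each common non-promoter site over the ETS1 libraries with a peak (vertical, log scale) against the distance from its centre to the nearest transcript start in bp (horizontal, log scale). Points are sites, blue for the 317 in single-copy and orange for the 245 in repeated sequence. Single-copy sites crowd to the left of 5 kb and repeated sites to the right, at lower folds.

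A peak was present in all 4 ETS1 libraries at 553 sites and in 3 at the other 9. Fold enrichment is the authors' MACS2 value at the peak summit over local background. The median fold was 5.69 and 4.92 in the untreated libraries and 5.69 and 5.37 in the TWEAK-treated libraries, so that the medians of both conditions overlapped. The quartiles ran from 3.51 to 7.44 in the first TWEAK library and from 3.55 to 8.35 in the first untreated library. The lowest of a site's folds had a median of 4.47 and ranged from 1.10 to 16.3. Sites were 204 to 3441 bp wide with a median of 585.5 bp, against 593.5 bp for common promoter sites and 438 bp for non-promoter sites found only after TWEAK. By q-value, the median common non-promoter site ranked 669th of 3428 peaks in the first TWEAK library, whereas the median non-promoter site found only after TWEAK ranked 1687th.

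Fold differed by place more than by treatment. In single-copy DNA the median fold was 7.97 and 5.88 in the untreated and 6.93 and 6.53 in the TWEAK-treated libraries. In repeated DNA it was 3.24 and 3.14 in the untreated and 3.24 and 3.47 in the TWEAK-treated libraries. Every library thus had the higher median in single-copy DNA, and the TWEAK-treated medians lay between the untreated ones in single-copy DNA and at or above them in repeated DNA. Median GC content was 68.9% in single-copy and 42.2% in repeated sites.

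**Figure D2:**
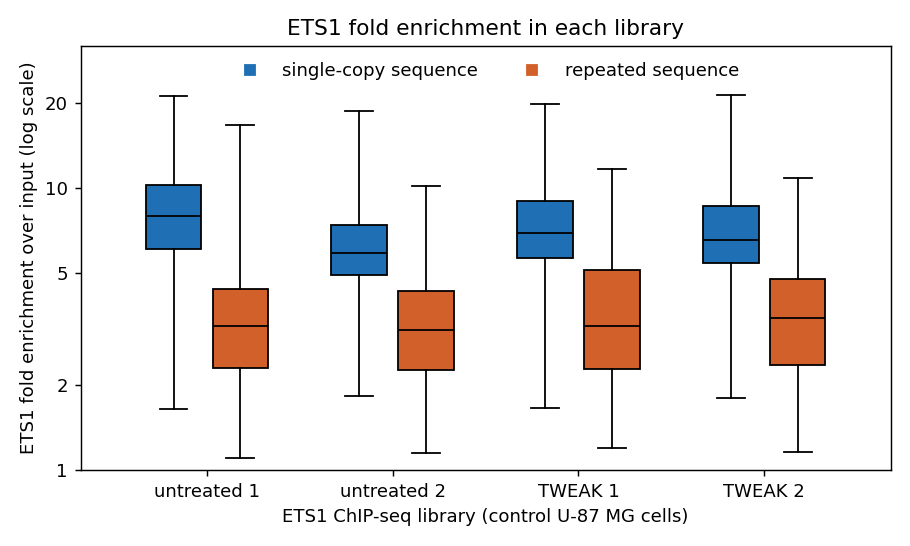
ETS1 fold enrichment over background (vertical, log scale) in each of the 4 ETS1 libraries, for sites in single-copy (blue) and repeated (orange) sequence. Boxes give quartiles and median, whiskers the lowest and highest site, and medians are 5.88 to 7.97 in blue and 3.14 to 3.47 in orange.

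ETS1 folds at the first 6 sites printed above were 13.6 to 21.4 over all 4 libraries. The site that ranked above them, with a lowest fold of 16.3, is on chromosome 8, which the rule for named sites leaves out. At PDGFRA, a receptor tyrosine kinase gene of glial progenitors, an intronic site 3123 bp downstream of a start had folds of 14.5 and 14.2 without and 15.2 and 15.6 with TWEAK. At TRIM2, a ubiquitin ligase gene, the folds were 18.3 and 14.0 without and 19.98 and 21.4 with TWEAK. At EGR2, a zinc finger transcription factor gene, they were 21.2 and 17.5 without and 18.2 and 13.6 with TWEAK. The 6 sites took no common course. Both TWEAK values were above both untreated values at PDGFRA, TRIM2 and TUBGCP5, and the ranges overlapped at EGR2, P2RY1 and PGAP4. At P2RY1, a purine receptor gene, folds were 17.8 and 13.6 without and 13.6 and 14.97 with TWEAK. At TUBGCP5, a component of the gamma-tubulin complex, they were 13.7 and 15.5 without and 16.0 and 15.8 with TWEAK. At PGAP4, which acts on glycosylphosphatidylinositol anchors, they were 16.7 and 13.6 without and 14.2 and 14.3 with TWEAK. No p52 peak lay on any of these 6 sites in any of 8 libraries.

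The weakest sites were the 3 satellite sites printed above. At the chromosome 1 satellite, ETS1 folds were 1.10 and 1.22 without and 1.21 and 1.18 with TWEAK. A p52 peak lay on it in all 8 p52 libraries, at folds of 1.09 to 1.30. On chromosome 16 the first site had ETS1 folds of 1.15 to 1.37 and the second of 1.30 to 1.90, and each had a p52 peak in 7 of 8 libraries. ETS1 and p52 folds at these sites were of like size in the libraries with a peak and close to background.

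Motif letters set these sites apart from promoters. CCGGAAG, the high-affinity form of the ETS element, lay on either strand within 200 bp around the summit in 14 sites (2.49%, 95% exact binomial interval 1.37 to 4.14%). It lay in 59 common promoter sites (10.6%, 8.18 to 13.5%) and in 5 non-promoter sites found only after TWEAK (1.66%, 0.542 to 3.83%). Of 14555311 windows of that length in hg38, 0.462% held it. All 14 were among the 317 single-copy sites (4.42%), and none of the 245 repeated sites held it. The shorter core AGGAAG, which overlaps some longer ETS forms, lay in 18.0% of the sites, 15.6% of common promoter sites and 18.3% of genome windows. Members and genome windows thus held it at near-equal shares, though they differ in base composition.

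Letters of CpG-rich DNA and of satellites made up the rest. The GC box GGGCGG, read by Sp factors, lay in 29.5% of the sites, 48.9% of common promoter sites and 2.84% of genome windows, and within the sites in 45.1% of single-copy and 9.39% of repeated ones. The palindrome of KAISO, a methyl-CpG-binding zinc finger factor, lay in 23 common promoter sites (4.14%) and in none of the 562. The AP-1 element TGANTCA, typical of enhancers, lay in 1.60% of the sites and 6.17% of genome windows, and the RUNX element TGTGGT in 3.74% and 13.4%. Members and genome windows differ in base composition, and its part in these and the other motif shares was not tested. An NF-κB consensus lay in 2.49% of the sites, 3.42% of common promoter sites and 2.10% of genome windows. The GGAAT pentamer repeated 3 times lay in 40 sites (7.12%), of which 37 were repeated, in no common promoter site and in 0.0293% of genome windows.

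**Figure D3:**
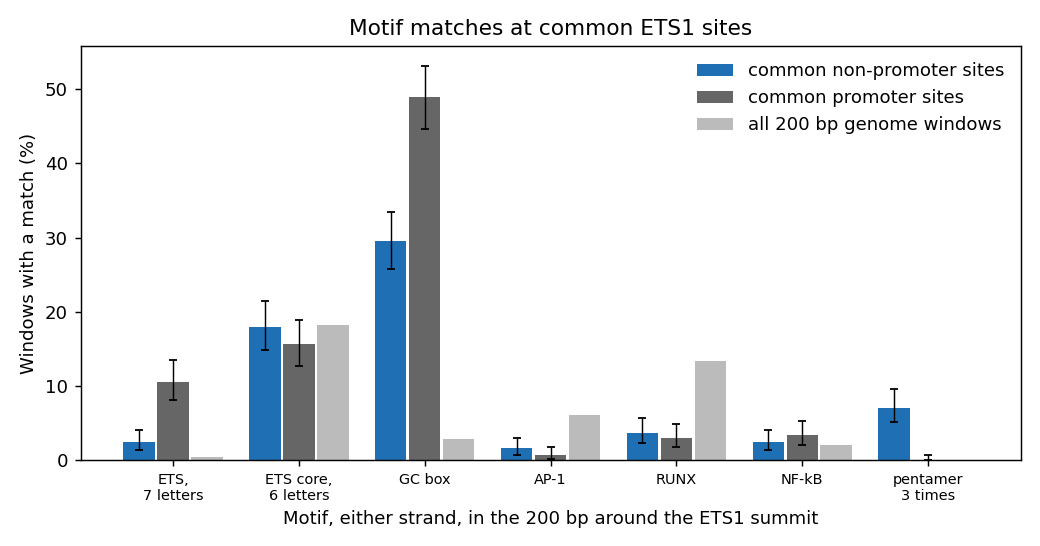
Share of 200 bp windows (%) with a match to each motif on either strand at the 562 common non-promoter sites (blue), the 556 common promoter sites (dark grey) and all genome windows (light grey). Error bars are 95% exact binomial intervals over sites. The 7-letter ETS form reaches 2.49% in blue and 10.6% in dark grey, and the pentamer repeat 7.12% in blue and 0 in dark grey.

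Listed p52 peaks lay on the common non-promoter sites chiefly where their DNA was repeated, also without TWEAK. Folds at the weakest of these were close to background, and a peak there does not tell which copy was bound. A p52 peak in both untreated libraries lay on 162 sites (28.8%), in both TWEAK-treated control libraries on 99 (17.6%, 14.6 to 21.02%), and in all 4 of these on 74. Library by library, 35.9 and 30.1% of the sites held a p52 peak without TWEAK and 30.96 and 26.0% with TWEAK, ranges that overlapped (exact permutation test over libraries, two-sided, p = 0.6667, where 0.333 is the smallest p that 2 against 2 libraries allow). In ETS1 KD cells with TWEAK the shares were 13.2 and 18.9% for guide 1 and 17.1 and 20.3% for guide 2. All 4 lay below both control libraries (p = 0.333, exact permutation test, for each guide), in lists of 1352 to 4183 p52 peaks against 3439 and 11678 in the controls. The part of list size in this difference was not tested.

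Members made up much of the untreated p52 lists. Of 554 and 363 p52 peaks in the untreated libraries, 211 (38.1%) and 177 (48.8%) lay on the 562 sites. Of 3439 and 11678 peaks after TWEAK, 157 (4.57%) and 155 (1.33%) did. Of all 2910 p52 sites of TWEAK-treated cells 96.3% had no untreated peak, whereas this held for 14 of the 99 on common non-promoter sites (14.1%). Of the 162 with p52 in both untreated libraries 30 (18.5%) had no p52 peak in either TWEAK-treated control library, against 25.6% of all untreated p52 sites. Both shares were lower than among p52 sites at large, in a comparison that has no test. The untreated background numbered 246 p52 sites and includes those on members. Of members with p52 in both TWEAK-treated control libraries, 5 of 8 in single-copy and 9 of 91 in repeated DNA had no untreated p52 peak.

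Sites with p52 peaks in both libraries of a control condition were nearly all in repeated DNA. Both untreated p52 libraries had a peak on 155 of 245 repeated sites (63.3%) and on 7 of 317 single-copy sites (2.21%). After TWEAK it was 91 (37.1%) and 8 (2.52%). No p52 peak in any library lay on 294 sites, of which 273 were single-copy, and a peak in all 8 lay on 35, all repeated. In repeated DNA the share of sites with p52 was 79.2 and 66.1% without TWEAK, 66.5 and 44.5% with TWEAK, 29.4 and 39.2% with guide 1 and 35.1 and 42.4% with guide 2. In single-copy DNA it was 2.52 and 2.21% without and 3.47 and 11.7% with TWEAK, and 0.631 to 3.15% in the KD libraries. A peak in all 20 ChIP-seq lists of the 3 antibodies was found at 9 sites, all repeated.

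Against common promoter sites, common non-promoter sites had the higher p52 share in 8 of 8 p52 libraries, by a mean of 19.8 points (SD 8.15, range 12.3 to 33.1; exact sign-change permutation test over libraries, two-sided, p = 0.0078125, the smallest that 8 libraries allow, and the same after adjustment over 3 comparisons). Restricted to single-copy sites of both kinds, 317 against 518, the difference was 0.68 points (SD 0.723), higher in 7 of 8 libraries (exact permutation p = 0.03125). The size of the p52 difference between these groups therefore rested on the repeated sites. The libraries were tested as the units, and the sites in them are the same throughout.

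**Figure D4:**
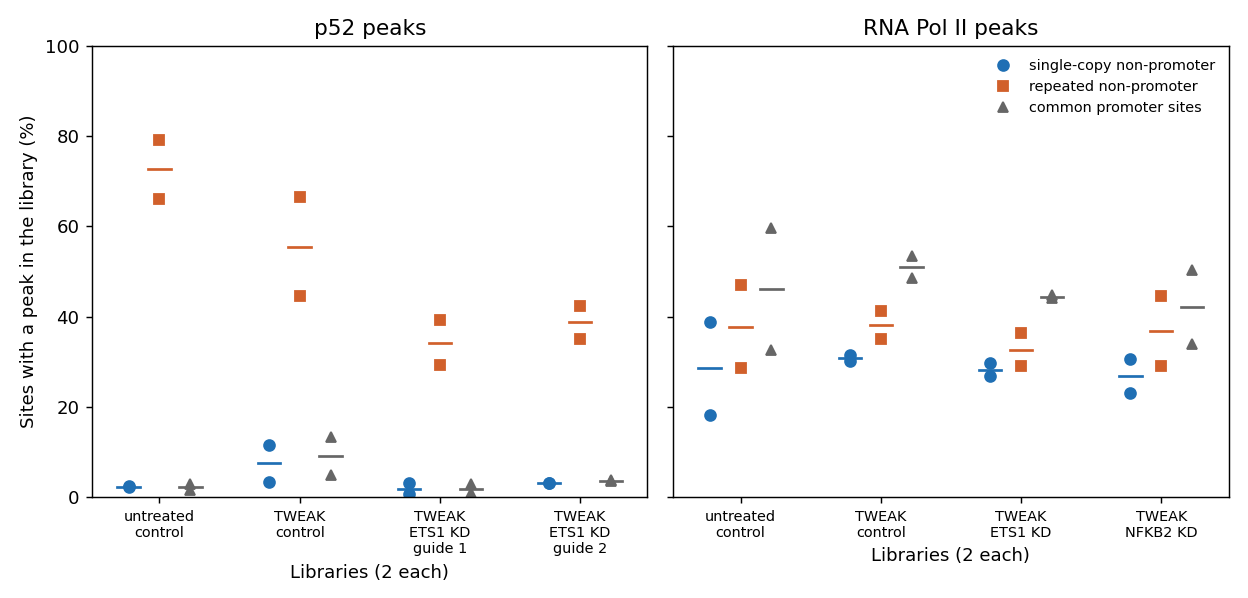
Share of sites (%) with a p52 peak (left) or an RNA Pol II peak (right) in each library, for single-copy (blue circles) and repeated (orange squares) common non-promoter sites and for common promoter sites (grey triangles). Each mark is 1 library and each dash the mean of 2. Repeated sites reach 79.2% for p52 while single-copy sites stay at or below 11.7%.

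The highest p52 folds on the members were in ribosomal DNA on chromosome 21. At the site beside a 5_8S_rRNA copy (8258822 to 8260897), p52 folds were 3.01 and 3.70 without and 28.9 and 20.6 with TWEAK. In ETS1 KD cells they were 10.7 and 22.6 for guide 1 and 26.6 and 31.6 for guide 2. At RNA5-8SN1 (8442381 to 8444045) they were 3.17 and 3.26 without and 50.3 and 17.3 with TWEAK, and the neighbouring site at 8441126 shared the same TWEAK peak. At RNA5-8SN2 (8215112 to 8216771) no untreated peak was listed, and the TWEAK folds were 55.6 and 16.5. The neighbouring site at 8213749 had the same TWEAK folds, and untreated p52 folds of 2.16 and 2.47. The RNA5-8SN2 site, counted above among those with p52 only after TWEAK, is thus not a separate gain. ETS1 folds at the 5 sites of highest p52 fold, all in this window, were 3.16 to 7.35 in the 4 libraries. As the 35 sites of this window recur in several copies, their p52 values are not separate measurements.
5_8S_rRNA (chr21:8259457-8259557): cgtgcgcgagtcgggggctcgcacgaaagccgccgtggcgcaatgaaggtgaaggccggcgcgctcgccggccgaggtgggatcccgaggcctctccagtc
RNA5-8SN1 (chr21:8442562-8442662): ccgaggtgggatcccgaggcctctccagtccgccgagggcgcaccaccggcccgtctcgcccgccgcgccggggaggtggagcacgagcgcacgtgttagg
These windows come from the sites ranked highest by the lower of their TWEAK p52 folds, and neither ETS form was found in them. They are centred on the ETS1 summit, and where the p52 summit lies is not given here. The end of the first window and the start of the second are the same bases, so they are not separate examples.

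In single-copy DNA, 8 sites had p52 in both TWEAK-treated control libraries, and at 5 of them no untreated p52 peak was listed. The others, on chromosomes 5, 10 and 16, had p52 in both untreated libraries. They lay in the 1 Mb windows with 5 or more sites, most of which were repeated. The strongest of the 8, an intronic site, lay at -3776 bp from the nearest start of SALL1, a zinc finger transcription factor gene. It was picked out after its values had been seen. Its p52 folds were 12.3 and 23.3 with TWEAK, 6.11 and 14.4 with guide 1 and 18.8 and 14.6 with guide 2, and no p52 peak was listed without TWEAK. Its ETS1 folds were 14.4 and 10.6 without and 13.4 and 10.1 with TWEAK. No RNA Pol II peak lay on it in any library, and SALL1 RNA was 44.4 ± 10.0 CPM without and 51.7 ± 14.9 CPM with TWEAK (SD, n = 3; edgeR adjusted p = 0.769).
SALL1 (chr16:51156006-51156106): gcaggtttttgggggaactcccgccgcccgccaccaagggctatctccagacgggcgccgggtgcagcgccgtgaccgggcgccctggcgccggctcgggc
The other TWEAK-only single-copy sites were at SMOC1, ELOCP28, LINC01003 and CEBPD, and they differed in p52 under ETS1 KD. At ELOCP28 p52 folds were 5.10 and 9.30 with TWEAK. They were 8.51 in replicate 2 of guide 1, with none listed in replicate 1, and 9.37 and 8.18 with guide 2. At LINC01003 they were 5.41 and 11.3 with TWEAK and 7.92 and 7.21 with guide 2, with none listed for guide 1. At SMOC1, which encodes a secreted calcium-binding protein, p52 folds were 4.72 and 7.19 with TWEAK, with no p52 peak in any ETS1 KD library. At CEBPD, a leucine zipper transcription factor gene, they were 6.62 and 7.24 with TWEAK and 6.03 in 1 of 4 ETS1 KD libraries. RNA of neither gene passed the test for TWEAK (SMOC1 adjusted p = 0.816, CEBPD adjusted p = 0.499, edgeR).

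RNA Pol II marked a minority of the sites. A peak in both TWEAK-treated control libraries lay on 146 sites (26.0%, 22.4 to 29.8%), in all 8 libraries on 67, in 1 to 7 on 263 and in none on 232. By library the share of sites was 30.8 and 34.3% in untreated control cells, 35.1 and 33.1% in TWEAK-treated control cells, 30.96 and 29.4% in ETS1 KD cells and 29.9 and 32.4% in NFKB2 KD cells. With and without TWEAK the values overlapped (exact permutation p = 0.6667), and both KD groups lay below both TWEAK-treated controls, with mean differences of -3.91 points for ETS1 KD and -2.94 points for NFKB2 KD (exact permutation p = 0.333 each, the smallest possible). Lists of the KD libraries held 11110 to 30267 peaks against 26986 and 44564 in the controls, and the part of this in the difference was not tested.

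In every library the RNA Pol II share was lower on common non-promoter than on common promoter sites, with a mean difference of -13.97 points (SD 8.40, range -25.4 to -1.61; 8 of 8 libraries, two-sided exact sign-change permutation p = 0.0078125). In single-copy sites alone the difference was -17.2 points (SD 4.15; lower in 8 of 8). Against non-promoter sites found only after TWEAK, the share was higher by 5.49 points (SD 4.63; 8 of 8, exact permutation p = 0.0078125). That difference did not hold in single-copy sites, where it was -1.01 points (higher in 2 of 8, exact permutation p = 0.422). It also ended when replicate 2 of the untreated ETS1 libraries was left out of the site call, at -0.60 points (exact permutation p = 0.703), while leaving out any other library kept it positive.

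In control cells, RNA Pol II was called gained or lost where both libraries of a condition had a peak and the other none. Sites where replicates of a condition differed count as neither gained nor lost. Of 146 sites with a peak in both TWEAK-treated control libraries 11 (7.53%) had none in either untreated library, against 8.91% of all RNA Pol II sites. Of 106 with a peak in both untreated libraries 3 (2.83%) had none after TWEAK, against 7.17% of all. The gain share was thus near the background. The loss share was under it but rests on 3 sites, and neither difference was tested. Of the 11 sites 8 were repeated, several of them in the ribosomal DNA window on chromosome 21, so the 11 are not separate places. Of 75 single-copy sites with a peak in both TWEAK-treated control libraries 3 were gained, at ALDH1A3, ZIC2 and SIPA1L2. The losses in single-copy DNA were at PMP22, a myelin protein gene, and at a further EGR2 site.

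ALDH1A3, a retinaldehyde dehydrogenase gene, had the largest of these folds. The exonic site lay 743 bp downstream of its start (chr15:100880238-100880998), with ETS1 folds of 4.99 and 5.48 without and 4.31 and 5.50 with TWEAK. RNA Pol II folds were 75.9 and 35.6 in TWEAK-treated control cells, with no peak listed in either untreated library. ETS1 KD cells had folds of 32.6 and 33.9, and in NFKB2 KD cells a fold of 3.75 was listed in 1 of 2 libraries. Its RNA stood at 159, 164 and 171 CPM without and at 461, 447 and 574 CPM with TWEAK. It was 571, 815 and 790 CPM in ETS1 KD cells and 363, 376 and 363 CPM in NFKB2 KD cells. The TWEAK difference was 1.59 on the log2 scale (SE 0.141, edgeR adjusted p = 0.000126), whereas neither KD difference passed the test (ETS1 KD 0.55, adjusted p = 0.0809; NFKB2 KD -0.43, adjusted p = 0.864). No p52 peak lay on the site in any library.

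At ZIC2, a zinc finger gene of neural patterning, RNA Pol II folds were 4.41 and 7.77 with TWEAK, with none listed without it, and ETS1 folds were 7.10 to 7.96 in all 4 libraries. ZIC2 RNA was 5.07 ± 0.784 CPM without and 8.08 ± 0.958 CPM with TWEAK (SD, n = 3), a difference that did not pass the test (log2 difference 0.67, edgeR adjusted p = 0.0800).

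Of the sites with RNA Pol II in all 8 libraries, the 4 farthest from a start lay in repeated DNA. The farthest of these, on chromosome 16 at 38277810, was 2365964 bp from the nearest start. Its folds were 2.51 to 5.73 for RNA Pol II, 2.58 to 4.78 for p52 and 4.18 to 4.83 for ETS1 over all libraries. The next 3 lay on chromosome 5 between 49613002 and 49622846, 789391 to 798630 bp from EMB, and each carried all 3 antibodies in all 20 libraries. At the site starting at 49615404 all folds were 1.30 to 2.59. Folds of the 3 antibodies at these sites overlapped. A nearer site, on chromosome 10 at 41859690 and 289545 bp from the nearest start, had RNA Pol II in all 8 libraries and was single-copy.

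Along single-copy sites near protein-coding starts, RNA Pol II went with the RNA of the gene. Of sites within 5 kb, those with RNA Pol II in all 8 libraries (28) had a median of 47.6 CPM after TWEAK (range 1.99 to 645), those with 1 to 7 libraries (92) 26.8 CPM (0 to 494) and those with none (116) 6.75 CPM (0 to 192). The ranges overlapped widely, and CPM is not scaled to gene length. ETS1 did not order these groups: the median of the lowest ETS1 fold over all single-copy sites was 5.10 with RNA Pol II in all 8 libraries, 5.28 with 1 to 7 and 5.29 with none. Of the 6 strong ETS1 sites printed above, TUBGCP5 had RNA Pol II in all 8 libraries at folds of 5.12 to 11.7 and P2RY1 in 3, and PDGFRA, TRIM2, EGR2 and PGAP4 had none.

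The 562 sites had 378 distinct nearest protein-coding genes, of which 293 had enough reads to be tested. TWEAK changed 17 of the 293 (5.80%) at an edgeR adjusted p under 0.05, against a background of 3.08% of all 16879 genes tested. Of these 10 (3.41%) rose, against 1.55% of all genes, and 7 (2.39%) fell, against 1.53%. Among protein-coding genes alone the background was 3.57% in either direction. The median log2 difference was -0.01 over the 293 and 0.02 over all genes. Leaving out any 1 of the 6 libraries left 4 to 10 genes called (1.36 to 3.41%), and the share of all genes fell too, to 0.990 to 2.34%. The balance of directions also turned with the tool, as DESeq2 called 15 higher and 23 lower. None of the 37 genes in a list of textbook ETS1 targets, and none of 35 textbook NF-κB targets, was the nearest gene of a member. Over all genes TWEAK raised 7 and lowered 1 of 35 tested ETS1 targets and raised 16 and lowered 0 of 31 tested NF-κB targets.

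CXCL5, a neutrophil-attracting chemokine gene, rose most. Its site lay 213 bp downstream of the start, and its RNA was 0.799, 1.20 and 0.687 CPM without and 5.49, 5.17 and 8.21 CPM with TWEAK (log2 difference 2.81, SE 0.274, edgeR adjusted p = 0.000193). In NFKB2 KD cells it was 2.66, 1.88 and 2.95 CPM, below every TWEAK-treated control, though the difference did not pass the test (adjusted p = 0.194). SLCO4A1, an organic anion transporter gene, rose from 16.8 to 46.6 CPM. NRCAM, a neuronal cell adhesion gene, rose from 3.03 to 6.97 CPM, and HES7, a basic helix-loop-helix repressor gene of the segmentation clock, from 1.92 to 3.78 CPM. CHST11, a chondroitin sulfotransferase gene, rose from 41.4 to 66.7 CPM. The groups did not overlap in any of these genes, and among the 17 called genes ALDH1A3, CXCL5 and PLPPR4 stayed called under each of 11 other settings.

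Genes that fell were mostly of low level. EPHA3, an ephrin receptor gene with 2 sites, fell from 0.905 to 0.261 CPM (log2 difference -1.76, SE 0.381, edgeR adjusted p = 0.0269). PDGFRA, beside the first site printed above, stood at 2.05, 1.38 and 2.09 CPM without and at 0.825, 0.696 and 0.499 CPM with TWEAK (log2 difference -1.45, SE 0.357, adjusted p = 0.0477). SLC35F4 fell from 1.92 to 0.853 CPM and B3GALT1, a galactosyltransferase gene, from 2.02 to 0.939 CPM. PLPPR4, a phospholipid phosphatase-related gene, fell from 18.7 to 9.75 CPM, and SDC2, a syndecan gene, from 90.7 to 53.3 CPM. ETS1 fold and RNA took no common course here, as the PDGFRA site was slightly higher and its RNA lower with TWEAK. The nearest genes of the other 5 sites did not pass the test for TWEAK, with adjusted p of 0.305 for TRIM2 and 0.798 for EGR2.

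ETS1 KD changed 4 of the 293 genes (1.37%), against 1.39% of all genes, so that the share was at the background, whereas by DESeq2 it was 4.08% against 2.74%. Of these 2 (0.683%) rose, against 0.255% of all genes, and 2 fell, against 1.13%. MEF2C, a MADS-box transcription factor gene 54610 bp from its site, stood at 7.35, 7.44 and 6.35 CPM in control and at 2.02, 1.68 and 1.97 CPM in KD cells (log2 difference -1.89, SE 0.253, edgeR adjusted p = 0.00227). It stayed called under each of 11 other settings. COL4A2, a basement membrane collagen gene, was higher in KD cells (5.85 against 11.3 CPM, adjusted p = 0.0301), as was FAM83D, a mitotic spindle gene (83.4 against 115 CPM, adjusted p = 0.0456). Those 2 calls were lost under 7 and 9 of 11 settings. Of the 35 tested ETS1 targets, ETS1 KD raised 1 and lowered 2. The lowered genes include ETS1 itself, the gene targeted (log2 difference -1.23, edgeR adjusted p = 0.00112).

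NFKB2 KD changed none of the 293 genes by edgeR, against 0.0296% of all genes. At an unadjusted p under 0.05 it was 18 (6.14%), against 3.91% of all genes, and DESeq2 called 1. Of the 31 tested NF-κB targets, NFKB2 KD lowered 2 and raised 0. The lowered genes include NFKB2 itself, the gene targeted (log2 difference -1.67, edgeR adjusted p = 0.00339). All 3 comparisons use the TWEAK-treated control libraries, so their values are not independent of each other.

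**Figure D5:**
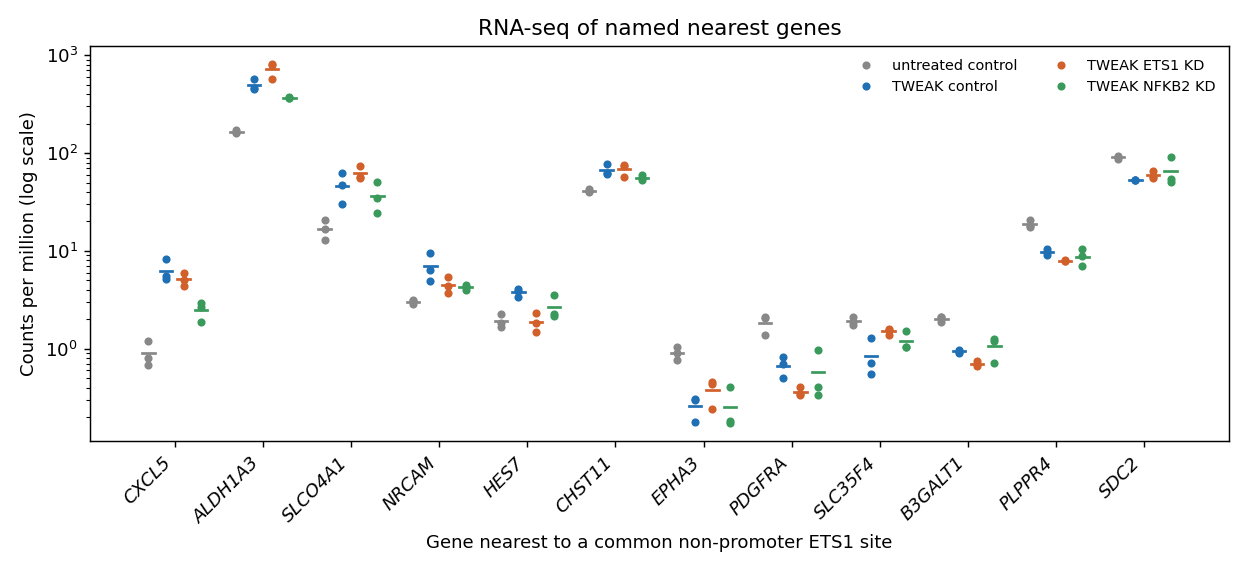
RNA level in CPM (log scale) of the genes nearest to common non-promoter sites that changed most with TWEAK, 6 that rose and 6 that fell. Points are libraries, 3 in each of 4 groups, and dashes are means. ALDH1A3 moves from 165 to 494 CPM and SDC2 from 90.7 to 53.3 CPM with TWEAK.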

How the data were processed

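The members and the gene lists were chosen with earlier results of these data known. Per the labels and the study's methods, ChIP-seq reads were trimmed (Trimmomatic), aligned (Bowtie2, hg38) and turned into peaks against input (MACS2) by the authors, who then removed blacklisted regions, which gave 20 deposited peak lists, 1 per library. Their values are fold enrichment (a ratio over local background) and −log10 p- and q-values by the authors. The authors counted RNA-seq reads with STAR and featureCounts, and the deposited values are raw counts per gene (totals of 28384201 to 40192606 in 12 libraries). Versions, the strand setting, multi-mapped read handling and which input served which library were not given in the sources used here. Peak depth is unknown.

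Peaks sharing at least 1 bp were merged within a condition. Annotation was GENCODE release 44 on hg38, and 0 peaks ran past a chromosome's end. The promoter window was 1000 bp before to 100 bp after a start. Intervals are 95% exact binomial ones over sites, and members share sequence, so that they cover counting error only. Peak shares were compared by exact permutation over libraries, two-sided. Of 62696 rows with 62649 distinct identifiers, 16879 genes passed filterByExpr and were tested with edgeR 4.0.16 (TMM, quasi-likelihood, 4 groups in 1 model, Benjamini-Hochberg) in R 4.3.3. DESeq2 1.42.0, which the study names, was an alternative. On simulated counts edgeR recovered 53, 48 and 56% of 2-fold changes among 16879 genes in the TWEAK, ETS1 KD and NFKB2 KD comparisons, with 7.35, 3.45 and 8.33% false calls. No replicate pair agreed within sampling noise. Peaks and sequences were handled in Python 3.11.15 with pysam 0.24.0.

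Named sites were the 6 highest and 3 lowest by their lowest ETS1 fold, the 5 of highest p52 fold and the 4 with RNA Pol II in all 8 libraries farthest from a start, none on chromosome 8. Single-copy sites with p52 only after TWEAK, or with RNA Pol II gained or lost, were named outside that rule. So was the RNA of some of their genes. They include CEBPD, which is on chromosome 8. Named genes were the 6 called genes that rose and the 6 that fell most with TWEAK, up to 4 each way for each KD, genes of the named sites, and list genes nearest to a member. A gene that this rule names is not reported here. The 3 input samples were not analysed here.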

Additional observations from a re-analysis of the deposited data

How the results depend on the processing

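The number of sites was 332 with peaks of a −log10 q of at least 5, 1341 with a peak in either replicate, 356 with a promoter window of -2000 to +500 bp and 317 in single-copy sequence, an alternative chosen after seeing the data, and 571 to 767 without any 1 ETS1 library. The intergenic share was 58.4% with the wider window, 12.3% in single-copy sequence and 35.3 to 40.7% without any 1 library. The p52 share was 9.47% with a peak in either replicate, 23.3% with the wider window, 0.985% with the strongest peaks in equal numbers per antibody, 2.52% in single-copy sequence and 13.8 to 30.96% without any 1 library. The RNA Pol II share was 18.4% with the stricter q, 18.6% with either replicate, 15.8% with equal numbers of peaks and 22.1 to 35.1% without any 1 library. The CCGGAAG share was 4.63% in 400 bp, 4.42% in single-copy sequence and 2.22 to 2.45% without any 1 library. The RNA Pol II difference from sites found only after TWEAK reversed to -1.01 points in single-copy sequence and ranged from -0.60 to 9.55 points without any 1 library, -0.60 being without replicate 2 of the untreated ETS1 libraries. The differences from common promoter sites kept direction and call under all settings run, -17.6 to -12.3 points for RNA Pol II and 15.6 to 20.9 points for p52 without any 1 library. Their size moved more, to -22.9 points for RNA Pol II and 11.4 for p52 with a peak in either replicate, and for p52 to 9.77 points with equal numbers of peaks and 0.68 in single-copy sequence. The causes of these shifts were not tested, beyond the fewer or more peaks and libraries that each setting uses.

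Of the nearest genes, TWEAK changed 38 by DESeq2 (13.1% against 5.25% of all genes, 15 higher, 23 lower), 32 without the filter on low counts (9.22% against 2.45%, 12 higher, 20 lower) and 8 with the wider window (6.06% against 3.08%). Without any 1 library TWEAK changed 4 to 10 (1.36 to 3.41% against 0.990 to 2.34%). ETS1 KD changed 12 by DESeq2 (4.08% against 2.74%), 14 without the filter (4.03% against 1.34%) and 1 with the wider window (0.758% against 1.39%). Without any 1 library ETS1 KD changed 2 to 3 (0.680 to 1.02% against 0.590 to 0.855%). NFKB2 KD changed 1 by DESeq2 (0.355% against 0.235%), 4 without the filter (1.15% against 0.248%) and 0 without any 1 library (against 0.0115 to 0.0232%). Samples that share a replicate number did not deviate together in every pair (correlations of -0.178 to 0.492 for TWEAK, -0.304 to 0.354 for ETS1 KD and 0.0945 to 0.407 for NFKB2 KD), so the numbers were not used as pairs. With a replicate block 24, 5 and 0 genes were called (8.19, 1.71 and 0%), against 3.89, 1.49 and 0.0237% of all genes. With replicate numbers as pairs, an alternative chosen after seeing the data, p52 and RNA Pol II shares gave an exact p of 0.5, the smallest for 2 pairs, in 5 of 6 comparisons between conditions, and of 1 for RNA Pol II with TWEAK. What 2 libraries a group can show is limited to an exact p of 0.333 at the least.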
